A study of Mus musculus with 4 samples.

Results

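The genes described here are the mouse major histocompatibility complex (MHC) genes, the interferon receptors, the Stat and Irf transcription factors and the interferon-induced effectors. They were chosen by name alone: gene names beginning with H2-, Ifit, Ifitm, Irf, Oas, Stat or Gbp and a number or letter as their families use, plus B2m, Tap1, Tap2, Tapbp, Cd74, Ciita, Isg15, Bst2, Ifnar1, Ifnar2, Ifngr1 and Ifngr2. The rule found 105 of the 46072 genes in the table, after 3 names carrying the pseudogene mark -ps were left out. Of the 105, 86 were above 0 in at least 1 library, 73 were above 0 in all 4 libraries, and 19 were listed at 0 throughout. RNA-seq of polyadenylated RNA was done on 4 libraries, all labelled as endothelial cells cut out by laser-capture microdissection (LCM) from the brain vessels of untreated wild-type (WT) mice. All 4 form 1 group, replicates 1 to 4, called libraries 1 to 4 here. The labels used here name no strain, age or sex, nor how many mice the material came from. The p-values below therefore measure only the spread between these libraries, and that spread may be technical. Levels are FPKM as deposited by the authors, fragments scaled to transcript length and to the mapped total, so different genes are compared per length.

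Interferons are secreted proteins, and type I interferons are released by cells that sense viral or other foreign nucleic acid. Type I interferons bind a receptor built from Ifnar1 and Ifnar2, and interferon gamma binds one built from Ifngr1 and Ifngr2. Both receptors act through Jak kinases and Stat proteins, and a complex that holds Stat2 and Irf9 binds a promoter element called the interferon-stimulated response element (ISRE). Its targets include the Ifit, Ifitm, Oas and Gbp families, Isg15 and Bst2, as well as genes of class I antigen presentation. In the healthy brain, class I molecules are known mainly from vessel walls and microglia, and class II molecules mainly from macrophages at the brain's borders and, at low level, microglia.

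The libraries held markers of many brain cells, so the values below do not tell which cell a transcript came from. Of 17 endothelial markers, 14 lay above 1 FPKM, and their median was 4.31 ± 0.570 FPKM (SD over 4 libraries). All 14 microglial markers lay above 1 FPKM, and their median was 16.7 ± 1.36 FPKM. Medians were 99.2 ± 3.61 FPKM for 10 neuronal, 97.7 ± 6.34 for 10 astrocytic and 82.3 ± 7.62 for 9 oligodendrocyte markers. Perivascular macrophage and leukocyte markers were low, with medians of 1.07 ± 0.416 over 8 genes and 0.144 ± 0.0947 over 12 genes. Summed FPKM per library was 448678 to 482882, and read depth is unknown. In such bulk material, fewer cells of a type and less RNA per cell cannot be told apart.

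The response element was searched for in the members' promoters. RefSeq promoter windows (GRCm38.p6, 250 bases before to 50 after the start) were found for 78 of the 103 distinct member names. The element's letters, GAAA, any 2 bases and GAAA again, on either strand, occurred in 22 of these 78 promoters (28.2%), against 1079 of 27025 genes in the whole promoter table (3.99%). The sites below were chosen to span the levels measured, from B2m, the highest gene, to Gbp2b, listed at 0. Each is given on the gene's own strand, 5′ to 3′, with the match in capitals. Where the match lies on the other strand it reads TTTC, 2 bases and TTTC.
B2m, chr2:122147536-122147569, + strand: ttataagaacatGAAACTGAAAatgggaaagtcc
Bst2, chr8:71537575-71537608, - strand: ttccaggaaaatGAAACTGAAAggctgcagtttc
Ifit3, chr19:34583361-34583394, + strand: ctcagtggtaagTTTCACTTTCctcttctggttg
Ifit3b, chr19:34607757-34607790, + strand: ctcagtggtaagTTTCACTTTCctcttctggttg
H2-T23, chr17:36032804-36032837, - strand: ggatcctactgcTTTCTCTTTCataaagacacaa
Isg15, chr4:156200869-156200902, - strand: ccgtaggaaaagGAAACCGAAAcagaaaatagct
Gbp3, chr3:142559987-142560020, + strand: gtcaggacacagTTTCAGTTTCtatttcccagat
Oas3, chr5:120777713-120777746, - strand: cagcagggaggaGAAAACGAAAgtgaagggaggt
Gbp2b, chr3:142594698-142594731, + strand: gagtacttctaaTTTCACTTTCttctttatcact

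The match in B2m is the same 10 letters as that in Bst2, and the match in Gbp2b is the same as those in Ifit3 and Ifit3b. The 22 members with a match had mean levels of 0 to 263 FPKM, with a median of 3.92 FPKM, and 15 of them reached a mean of 1 FPKM. The 56 members without a match had a median of 1.22 FPKM, and 30 of them reached 1 FPKM. By family, the letters stood in 5 of 5 Gbp promoters found, in 3 of 4 Ifit, in 4 of 8 Oas, in 2 of 7 Ifitm and in both Bst2 and Isg15. They stood in 2 of 20 class Ib promoters, in neither H2-K1 nor H2-D1, in none of 8 class II promoters and in none of the 4 receptor promoters. The letters TTCNNNGAA, the core of the gamma-activated site that Stat dimers bind, occurred in 15 of 78 member promoters (19.2%), against 9.55% of all genes. The letters CCAAT, part of the module in MHC promoters that the Rfx and Nfy proteins bind, occurred in 51 of 78 member promoters (65.4%), against 41.1% of all genes. They stood in all 8 class II promoters, in both class Ia promoters and in 17 of 20 class Ib promoters. Members of at least 1 FPKM held them in 62.2% and those under 1 FPKM in 69.7%. A match is a run of letters and not a shown site, and motifs may overlap within one promoter.

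Across the group, levels ran from 0 to 263 FPKM, and a few genes carried most of the signal. All members together held 887 ± 40.5 FPKM per library (SD, n = 4), or 0.19% ± 0.00806 of the summed FPKM. B2m, Ifitm3, Ifitm2, H2-D1 and Bst2 made up 56.7% ± 2.12 of that. Of 105 members, 56 had a mean of at least 1 FPKM and 16 a mean of at least 10 FPKM. The 86 members above 0 in any library had a median level of 2.12 FPKM, against 1.45 FPKM over all 25206 such genes. Their median coefficient of variation between libraries was 19.6% at means of at least 1 FPKM, against 16.9% for all genes at that level. At means of at least 10 FPKM it was 11.9%, against 11.8% for all genes.

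**Figure D1:**
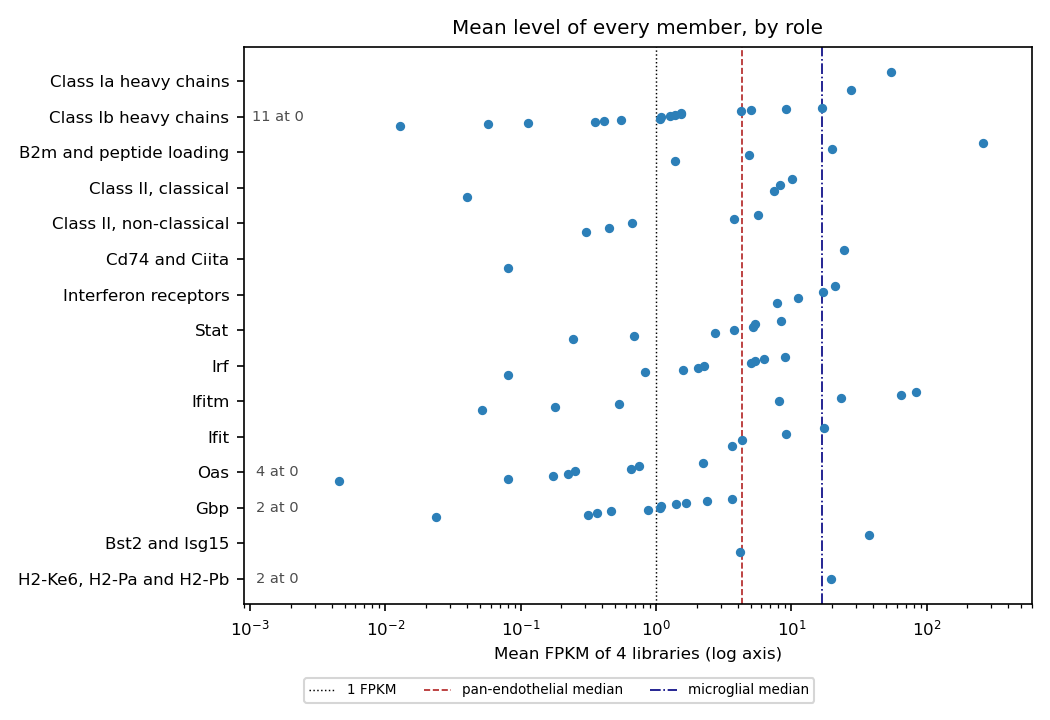
Mean FPKM of 4 libraries (log axis) for every member, 1 point each, grouped by role, with the number of members listed at 0 at the left edge. Vertical lines mark 1 FPKM, the pan-endothelial median of 4.31 FPKM and the microglial median of 16.7 FPKM. B2m lies alone at 263 FPKM, while the Oas genes other than Oasl2 and most class Ib genes lie under 1 FPKM.

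Each gene's level was tested against 1 FPKM by limma on log2(FPKM + 1), adjusted over 25206 genes. Of the 86 members tested, 45 lay above 1 FPKM, or 52.3%, against 47.7% of all genes tested. Another 25 lay below, or 29.1%, against 40.1% of all genes tested, and 16 passed in neither direction. The share above lay near that of the whole table and the share below was lower than it, and these shares were not tested against each other. Counts by role and by list stand beside the same 47.7% and 40.1% and were not tested against them. With each library rescaled to a fixed sum, where the fixed level equals 0.466 FPKM on the deposited scale, 54 members lay above, or 62.8%, against 54.3% of all genes. Then 13 lay below, or 15.1%, against 29.7% of all genes. With no filter on low values 44 of 105 lay above, or 41.9%, against 26.1% of all genes, and 41 below, or 39.0%, against 65.4%. The same test was run against the median of the endothelial markers of the same library. There 25 members lay above, or 29.1%, against 31.4% of all genes, and 47 lay below, or 54.7%, against 60.4%. Against the microglial median, 11 lay above, or 12.8%, against 14.4% of all genes, and 72 lay below, or 83.7%, against 81.3%. A list median carries an error shared by all genes, which limma's pooled spread does not count, so no p-value is given for single genes in those comparisons. With each gene's own spread in place of the pooled one, the endothelial counts were again 25 and 47 and the microglial ones 10 and 72.

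**Figure D2:**
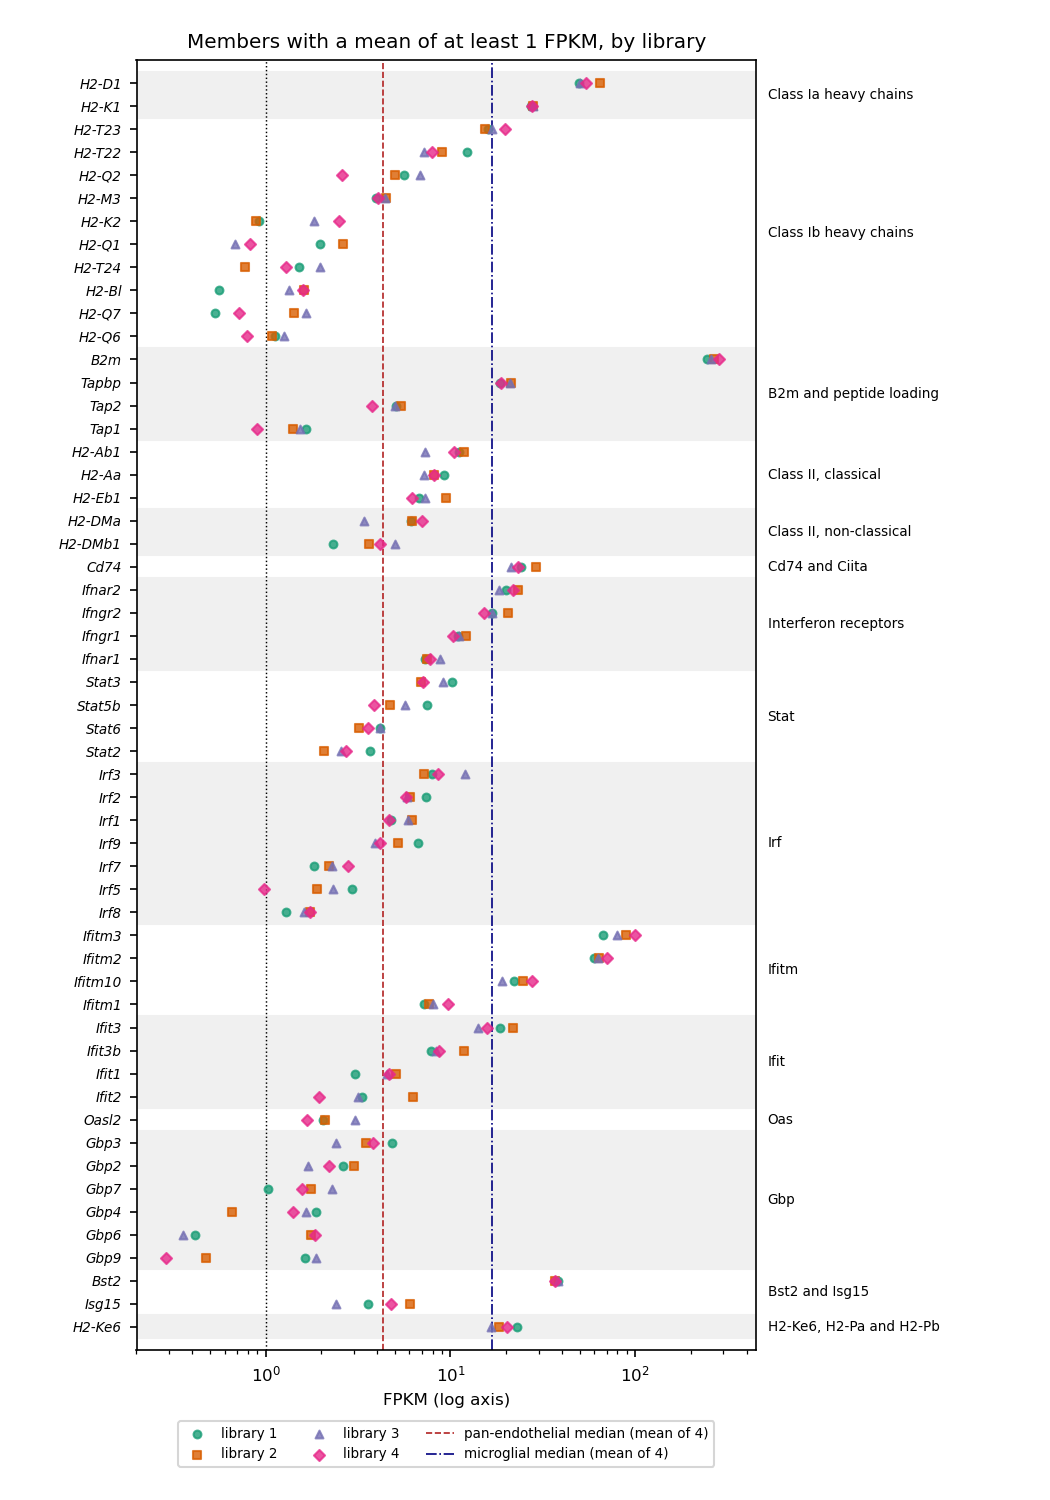
FPKM in each of the 4 libraries (log axis) for 55 of the 56 members with a mean of at least 1 FPKM, grouped by role and ordered by mean. Lines mark 1 FPKM and the mean pan-endothelial and microglial medians, and the 4 points of B2m, H2-K1 and Bst2 lie close together while those of Gbp6 and Gbp9 spread across 1 FPKM.

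The highest gene of the group belongs to class I antigen presentation. B2m encodes beta-2 microglobulin, the light chain that every class I molecule needs to reach the surface (ENSMUSG00000060802, chromosome 2, 122147686 to 122153083, GRCm38). It measured 246, 266, 257 and 283 FPKM in libraries 1 to 4, a mean of 263 ± 15.7 (SD), a log2(FPKM + 1) difference of 7.04 ± 0.055 (SE) over the level of 1 FPKM (limma, adjusted p = 9.90e-08). B2m stood at rank 223 of all 46072 genes, and all 4 libraries lay within a narrow range. H2-D1, a classical class I heavy chain that shows peptides to cytotoxic T cells, measured 49.4, 64.3, 50.2 and 54.3 FPKM (chromosome 17, 35262730 to 35267499). H2-K1, the other one, measured 27.4, 28.1, 27.9 and 27.5 FPKM (chromosome 17, 33996017 to 34000347), the smallest relative spread of any member at that level or above, with a coefficient of variation of 1.13%. The groups of values did not overlap, and H2-D1 exceeded H2-K1 by 0.94 ± 0.16 (SD, log2 difference) in every one of the 4 libraries (exact sign-flip test, 2-sided p = 0.125). That p is the smallest this exact test can give with 4 libraries, so no pair of members could reach 0.05 in it. Transcripts of H2-D1 match H2-K1 at 95.2% identity over 61.8% of their length, so reads could be split between them and both values are uncertain for that reason.

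The light chain outweighed the heavy chains in every library. The 29 class I heavy chain genes, classical and non-classical and with annotated pseudogenes among them, summed to 123, 136, 124 and 125 FPKM. B2m was 2.07 ± 0.139 times that sum (SD, n = 4). H2-K1 and H2-D1 held 64.8% ± 2.58 of the heavy chain sum. Against H2-K1 alone, B2m was 3.20 ± 0.085 higher (log2), and against H2-D1 alone 2.25 ± 0.15 higher, in 4 of 4 libraries each (exact p = 0.125, the smallest possible). Of the 11 members above the microglial median, 3 were these class I genes.

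Non-classical class I genes, known as class Ib, were mostly low or listed at 0. Of 27, 4 lay above 1 FPKM, 6 below, 6 in neither and 11 were listed at 0 in all libraries (limma for the tested ones). The 27 include H2-K2 and H2-Q3, annotated as pseudogenes, and H2-Q5, H2-Bl and H2-T10, annotated as polymorphic pseudogenes. H2-T23, which encodes Qa-1, the ligand of an inhibitory receptor on natural killer cells, measured 15.9, 15.3, 16.8 and 19.6 FPKM, and was exceeded by H2-K1 by 0.69 ± 0.16 (log2) in 4 of 4 libraries. H2-T22, a ligand of some gamma-delta T cells, measured 12.2, 9.05, 7.21 and 7.99 FPKM. H2-M3, which presents formylated peptides, measured 3.95, 4.46, 4.44 and 4.03 FPKM, and H2-Q2 5.64, 5.03, 6.81 and 2.58 FPKM. These 4 were the ones above 1 FPKM. At the other end, of the 9 H2-M genes known from the vomeronasal organ (H2-M1, H2-M9, H2-M11 and the H2-M10 series), 8 were listed at 0 in all libraries. H2-Q10, known as a secreted liver product, had a mean of 0.114 FPKM, and H2-T3, known from thymus and gut, was listed at 0. H2-T22 has a near copy in H2-T10 (96.5% identity), H2-Q2 in H2-Q1 (96.2%) and H2-T23 in C920025E04Rik (95.6%), so these values are uncertain.

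The genes that load class I molecules with peptide were uneven. Tapbp, or tapasin, which holds empty class I molecules beside the peptide transporter, measured 18.6, 21.2, 20.9 and 18.8 FPKM. Tap2 measured 5.09, 5.43, 5.04 and 3.78 FPKM and Tap1, its partner in the transporter, 1.65, 1.40, 1.53 and 0.897 FPKM. Tap1 was lower than Tap2 in 4 of 4 libraries, by a log2 difference of -1.30 ± 0.096 (exact p = 0.125, the smallest possible), and the values did not overlap. Tap1 could not be told from 1 FPKM (limma, adjusted p = 0.144). Tap1 shares 212 exonic bases with Psmb9 on the opposite strand, and the strand setting is not given, so some reads could belong to either. Outside the rule, the general chaperones of loading were far higher: Canx at 127 ± 14.7, Calr at 106 ± 3.11 and Pdia3 at 101 ± 11.95 FPKM. Of the 12 other class I loading genes, 9 lay above and 2 below 1 FPKM, against 47.7% and 40.1% of all genes tested. Psmb8 and Psmb9, subunits of the immunoproteasome, measured 5.52 ± 0.882 and 2.59 ± 0.594 FPKM, and Psmb10, the remaining one, 38.5 ± 6.76. Nlrc5, the known transactivator of class I genes, was below 1 FPKM at 0.0215 ± 0.0122.

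Class II genes were measured at a moderate level with little of their master regulator. Cd74, the invariant chain that guides class II molecules to the endosome, measured 24.2, 29.2, 21.2 and 23.3 FPKM. H2-Ab1, a class II beta chain, measured 11.1, 11.9, 7.25 and 10.5 FPKM, and H2-Aa, its alpha chain partner, 9.24, 8.17, 7.15 and 8.12 FPKM. H2-Eb1, a second beta chain, measured 6.79, 9.41, 7.24 and 6.17 FPKM. These 4 lay above 1 FPKM and above the endothelial median, and library 3 held the lowest value of Cd74, H2-Ab1 and H2-Aa. Against the microglial median Cd74 lay above, by 0.56 (log2), while H2-Ab1, H2-Aa and H2-Eb1 lay below, by -0.64, -0.91 and -1.05. With the mean of the endothelial markers in place of their median, H2-Aa and H2-Eb1 no longer passed as above it. Cd74 was 0.95 ± 0.0471 times the sum of the 4 classical class II genes. H2-Aa was below H2-Ab1 in 4 of 4 libraries, by -0.27 ± 0.20 (log2), a difference that came to nearly 0 in library 3. H2-Eb2, a further beta chain gene, was above 0 in library 1 alone, at 0.16 FPKM.

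Ciita, the transactivator without which class II genes are not induced, measured 0.138, 0.104, 0.0422 and 0.0409 FPKM, and lay below 1 FPKM (limma, adjusted p = 4.10e-06). Its exons overlap those of Dexi, at 31.1 FPKM, on the opposite strand by 329 bases. Of the peptide editors, H2-DMa, which helps to exchange peptides in the endosome, measured 6.12, 6.19, 3.40 and 6.97 FPKM, and its partner H2-DMb1 2.30, 3.63, 5.002 and 4.16 FPKM. H2-Oa and H2-Ob, which restrain that exchange and are known from B cells, lay below 1 FPKM at 0.449 ± 0.240 and 0.305 ± 0.303. H2-DMb1 has a near copy in H2-DMb2 (95.7% identity), and H2-DMa overlaps Brd2 on the opposite strand. Of the 16 other class II regulators and processing genes, 12 lay above and 2 below 1 FPKM, against 47.7% and 40.1% of all genes tested. Highest were Ctsl at 94.2 ± 7.59, Ctss at 62.5 ± 10.2 and Lgmn at 57.3 ± 5.49 FPKM, all endosomal proteases. Ctss is also in the microglial marker list. Rfxap, Rfx5 and Rfxank, the Rfx subunits on MHC promoters, measured 16.9 ± 1.18, 4.89 ± 1.44 and 4.86 ± 0.491 FPKM. Class I heavy chains together were 4.97 ± 0.548 times the classical class II genes, with 4.52 as the lowest ratio and 5.72 as the highest. Beside class II, the defining markers of perivascular macrophages summed to 9.45 to 13.3 FPKM over 8 genes, with 1 above and 2 below 1 FPKM, and those of microglia to 334 to 462 FPKM over 14 genes. None of either list was at 0. Their part in the class II values was not tested.

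All 4 subunits of the type I and interferon gamma receptors were measured, at 7.81 to 20.9 FPKM on average. Ifnar2, the type I subunit of high affinity, measured 20.03, 23.3, 18.4 and 21.7 FPKM, and Ifnar1, its signalling partner, 7.26, 7.50, 8.73 and 7.75 FPKM. Ifnar2 exceeded Ifnar1 by 1.31 ± 0.22 (log2) in 4 of 4 libraries and made up 72.6% ± 3.36 of their sum. Ifngr1, the ligand-binding chain of the interferon gamma receptor, measured 10.9, 12.2, 11.1 and 10.4 FPKM, and Ifngr2 16.7, 20.4, 16.8 and 15.1 FPKM. Ifngr1 lay below Ifngr2 by -0.58 ± 0.082 (log2) in 4 of 4 libraries, and Ifnar1 below Ifngr1 by -0.47 ± 0.14. The exact p was 0.125 for each of these pairs, and 0.138 adjusted over the 22 pairs compared. The order was thus Ifnar2, Ifngr2, Ifngr1, Ifnar1, with the ranges of Ifnar2 and Ifngr2 overlapping and the others apart. The type I subunits summed to 28.7 ± 1.78 FPKM and the type II subunits to 28.4 ± 2.97 FPKM. All 4 lay above the endothelial median, but with the mean of the markers in its place Ifnar1 did not pass. Ifnar2, Ifnar1 and Ifngr2 lie in one stretch of chromosome 16, from 91372783 to 91565623, and Ifngr1 on chromosome 10.

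The ligands themselves were almost all listed at 0. Of 11 interferon genes, including Ifnb1, Ifng and 4 Ifna genes, 10 were listed at 0 in all libraries and Ifnz measured 0.0113 ± 0.0143 FPKM. Below the receptors, 10 of 14 Jak kinase and feedback genes lay above 1 FPKM and 0 below (4 passed in neither direction). Of all genes tested, 47.7% lay above and 40.1% below. Jak1, which serves both receptors, measured 21.1 ± 2.91 FPKM, and Jak2, its partner at the interferon gamma receptor, 4.85 ± 0.916. Tyk2, its partner at the type I receptor, measured 1.12 ± 0.254 and could not be told from 1 FPKM (limma, adjusted p = 0.552). Usp18, an interferon-induced brake on the type I receptor, measured 2.79 ± 0.299. In the same list Pias1 and Pias2, which restrain Stat proteins, measured 15.1 ± 2.07 and 13.4 ± 3.40 FPKM. Of 12 other cytokine receptors 6 lay above and 4 below 1 FPKM, beside the same shares of all genes. Il10rb was highest at 14.5 ± 2.40, then Prlr at 13.6 ± 3.14 and Il6st at 5.31 ± 0.810.

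Of the 7 Stat genes, 5 lay above 1 FPKM and 2 below. Stat3, the main Stat of the interleukin-6 family, was highest at 10.2, 6.91, 9.12 and 7.12 FPKM. Stat5b measured 7.47, 4.70, 5.68 and 3.86 and Stat6, which acts for interleukin-4, 4.13, 3.19, 4.17 and 3.58 FPKM. Stat3, Stat5b, Stat6 and Stat2 were each highest in library 1 or 3 and lowest in library 2 or 4. Stat5b exceeded its close copy Stat5a, at 0.689 ± 0.0528 FPKM, by 1.90 ± 0.31 (log2) in 4 of 4 libraries, though the transcripts match at 96.4% over 60.5% of their length. Stat4, known from lymphocytes, lay below 1 FPKM at 0.243 ± 0.173.

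Stat2 and Irf9, which act together at the response element, were measured at low level. Stat2 measured 3.65, 2.07, 2.56 and 2.72 FPKM and Irf9, the DNA-binding part, 6.70, 5.21, 3.91 and 4.15 FPKM. Irf9 exceeded Stat2 by 0.67 ± 0.26 (log2) in 4 of 4 libraries (exact p = 0.125, the smallest possible).

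Of the 9 Irf genes, 7 lay above 1 FPKM, 1 below and 1 in neither. Irf3, the constitutive factor that switches on interferon genes after sensing, measured 7.92, 7.20, 11.96 and 8.56 FPKM. Irf7, its interferon-induced relative, measured 1.82, 2.19, 2.28 and 2.78 FPKM, so Irf3 exceeded it by 1.59 ± 0.30 (log2) in 4 of 4 libraries. Irf1, an activator of class I genes, at 4.79, 6.18, 5.86 and 4.65 FPKM, and Irf2, often its antagonist, at 7.36, 6.02, 5.84 and 5.74 FPKM, did not keep one order, with a difference of -0.19 ± 0.26 (exact p = 0.5). Irf8, a factor of myeloid cells, measured 1.28, 1.73, 1.62 and 1.73 FPKM and Irf5 2.95, 1.89, 2.30 and 0.975 FPKM. Both passed as above 1 FPKM (limma, adjusted p = 0.0267 and 0.0414), but Irf5 did not with its own spread in place of the pooled one. Irf8 lost the call without library 2, 3 or 4, and Irf5 without library 1, 2 or 3. The best-scoring Irf5 transcript matches Tnpo3, at 13.03 FPKM, over 60.8% of its length. The exons of both genes share 411 bases on opposite strands, or 14.1% of the exonic bases of Irf5, so Irf5 is uncertain. Irf4, a lymphocyte factor, lay below 1 FPKM at 0.0801 ± 0.133.

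**Figure D3:**
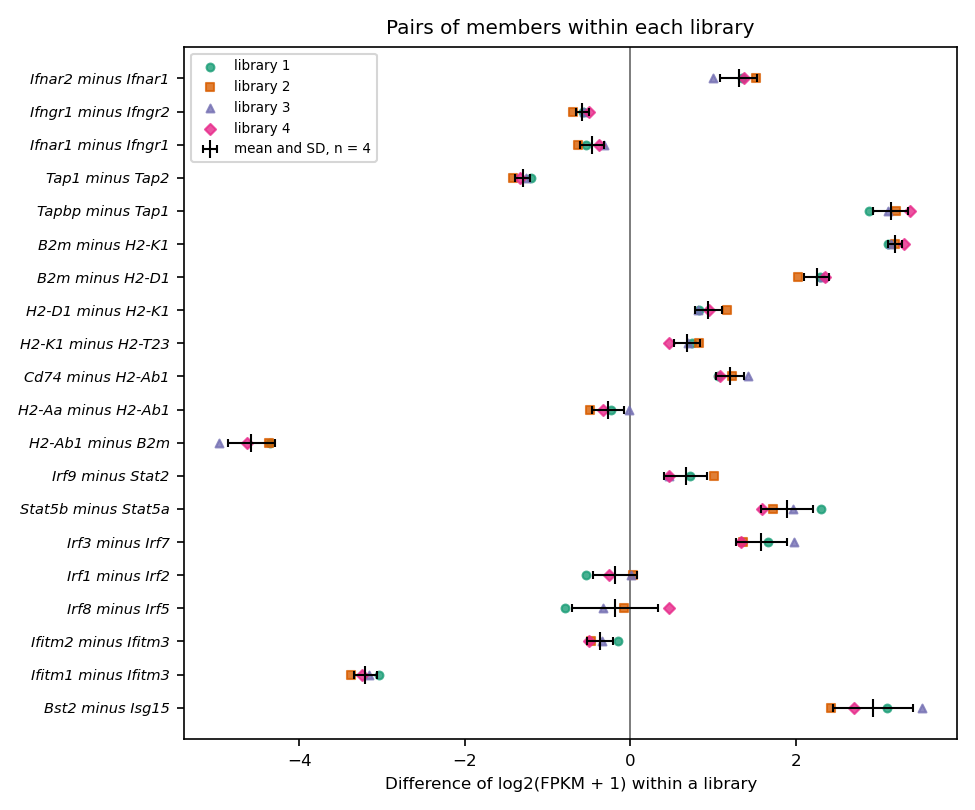
Difference of log2(FPKM + 1) between the members of each of 20 of the 22 pairs within each library (points), with the mean and SD over 4 libraries (bars). In 18 of these 20 pairs all libraries lay on one side of 0, and the exceptions were Irf1 with Irf2 and Irf8 with Irf5.

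The effector families differed widely in level, in the order Ifitm, Bst2 with Isg15, Ifit, Gbp and Oas by mean summed FPKM. In library 2 the Ifit genes, at 44.9 FPKM, stood above Bst2 with Isg15, at 42.6 FPKM. The Ifitm genes, membrane proteins of which some block the entry of enveloped viruses, summed to 180 ± 22.5 FPKM, which was 20.3% ± 1.80 of all members. Ifitm3 measured 66.5, 88.9, 80.0 and 100.1 FPKM, Ifitm2 59.8, 63.8, 62.7 and 70.6, Ifitm10 22.1, 24.8, 18.9 and 27.7 and Ifitm1 7.21, 7.67, 8.03 and 9.66 FPKM. Library 4 held the highest value of all 4. Ifitm2 lay below Ifitm3 by -0.37 ± 0.16 (log2) and Ifitm1 below Ifitm3 by -3.21 ± 0.14, in 4 of 4 libraries each (exact p = 0.125, the smallest possible). Ifitm2 and Ifitm3 made up 82.1% ± 1.33 of the family. Ifitm5, known from bone, Ifitm6 and Ifitm7 lay below 1 FPKM. Ifitm1 and Ifitm2 have near copies listed at 0, so their values are uncertain.

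Bst2, or tetherin, which holds budding virus at the cell surface, measured 38.3, 36.6, 38.2 and 36.6 FPKM, with a coefficient of variation of 2.57%. Isg15, a ubiquitin-like protein that interferon induces strongly, measured 3.58, 6.01, 2.40 and 4.78 FPKM, with a coefficient of variation of 37.1%. Bst2 exceeded Isg15 by 2.94 ± 0.48 (log2) in 4 of 4 libraries, and the promoters of both hold the response element letters shown above.

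The Ifit genes, which bind foreign RNA and slow its translation, all lay above 1 FPKM. Ifit3 measured 18.6, 21.7, 14.03 and 15.7 FPKM and Ifit3b 7.84, 11.9, 8.31 and 8.69 FPKM. Ifit1 measured 3.04, 5.10, 4.53 and 4.64 FPKM and Ifit2 3.32, 6.27, 3.15 and 1.93 FPKM. Library 2 held the highest value of all 4 Ifit genes, and also of Isg15, H2-K1, H2-D1 and Cd74. Across the 56 members of at least 1 FPKM it held the highest value in 21, against 13, 12 and 10 in libraries 1, 3 and 4. How many of all genes at that level were highest in library 2 was not counted, so this is not read as a trait of the members. Of the 14 microglial markers 9 were also highest in library 2, and their sum there was 462 FPKM, against 334 to 385 FPKM in the other 3. Most other cell types' marker sums were also highest in library 2. Neuronal markers summed to 2716 FPKM there, against 2172 to 2320 in the other 3, and oligodendrocyte markers to 2628, against 2211 to 2389. The astrocytic, endothelial and pericyte sums were highest there too, at 1221, 301 and 99.9 FPKM. Counted by marker, only 2 of 10 astrocytic, 4 of 17 endothelial and 2 of 8 pericyte markers were highest in library 2. For neuronal and oligodendrocyte markers it was 7 of 10 and 5 of 9. The perivascular macrophage sum was lowest there, at 9.45 FPKM. The leukocyte sum was highest in library 3, at 7.01 FPKM, against 2.70 in library 2. The part of these cell types in the values of library 2 was not tested. Ifit3 and Ifit3b transcripts match at 97.8% identity, and the 34 bases of promoter shown above are the same in both, so the split between them is uncertain.

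Gbp genes, interferon-induced GTPases that attack membranes of intracellular microbes, were near 1 FPKM. Of 13, 2 lay above it, 4 below, 5 in neither and 2 were listed at 0. Gbp3 measured 4.81, 3.51, 2.41 and 3.83 FPKM and Gbp2 2.64, 3.02, 1.70 and 2.196 FPKM, the 2 above. Gbp7, Gbp4 and Gbp9 had means of 1.66, 1.40 and 1.07 FPKM. Gbp2b and a second entry of Gbp11 were listed at 0. The symbol Gbp6 stands for 2 entries, at 1.09 ± 0.821 and 0.368 ± 0.31 FPKM, whose transcripts match each other at 99.8%.

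Oas genes, of which only some encode enzymes that make the messenger activating RNase L, were the lowest family. Of 12, 1 lay above 1 FPKM, 5 below, 2 in neither and 4 were listed at 0. Oasl2 was the one above, at 2.04, 2.09, 3.04 and 1.66 FPKM. Oas1a measured 1.27, 0.794, 0.636 and 0.314 FPKM, Oas2 had a mean of 0.0799 FPKM, and Oas3 was above 0 in library 2 alone, at 0.0183 FPKM.

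Interferon-stimulated genes outside the rule also ran from near 0 to over 100 FPKM. Of 40, 17 lay above 1 FPKM and 7 below, where 47.7% and 40.1% of all genes tested did. The list median was 1.53 ± 0.223 FPKM. Ifi27 was highest at 145 ± 19.4, followed by Lgals3bp at 17.9 ± 2.74 and Cmpk2 at 10.8 ± 2.24 FPKM. Rsad2 and Mx1, interferon-induced antiviral genes, measured 0.799 ± 0.337 and 0.0854 ± 0.12 FPKM. Cxcl10, an interferon-induced chemokine, measured 0.204, 1.06, 2.39 and 0.641 FPKM. Mx1 lay below 1 FPKM, but Rsad2 and Cxcl10 could not be told from it (limma, adjusted p = 0.243 and 0.856). Others of the list lay above, among them Ube2l6 at 9.97 ± 2.40 and Ifi35 at 7.47 ± 3.14 FPKM. Of 16 nucleic acid sensors and adaptors, 6 lay above and 7 below 1 FPKM, beside the same shares of all genes. The highest were Tbk1, a kinase that activates Irf3, at 12.6 ± 0.561, Mavs, the mitochondrial adaptor of RNA sensing, at 3.36 ± 1.03 and Myd88, an adaptor of Toll-like receptors, at 2.997 ± 0.862 FPKM.

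**Figure D4:**
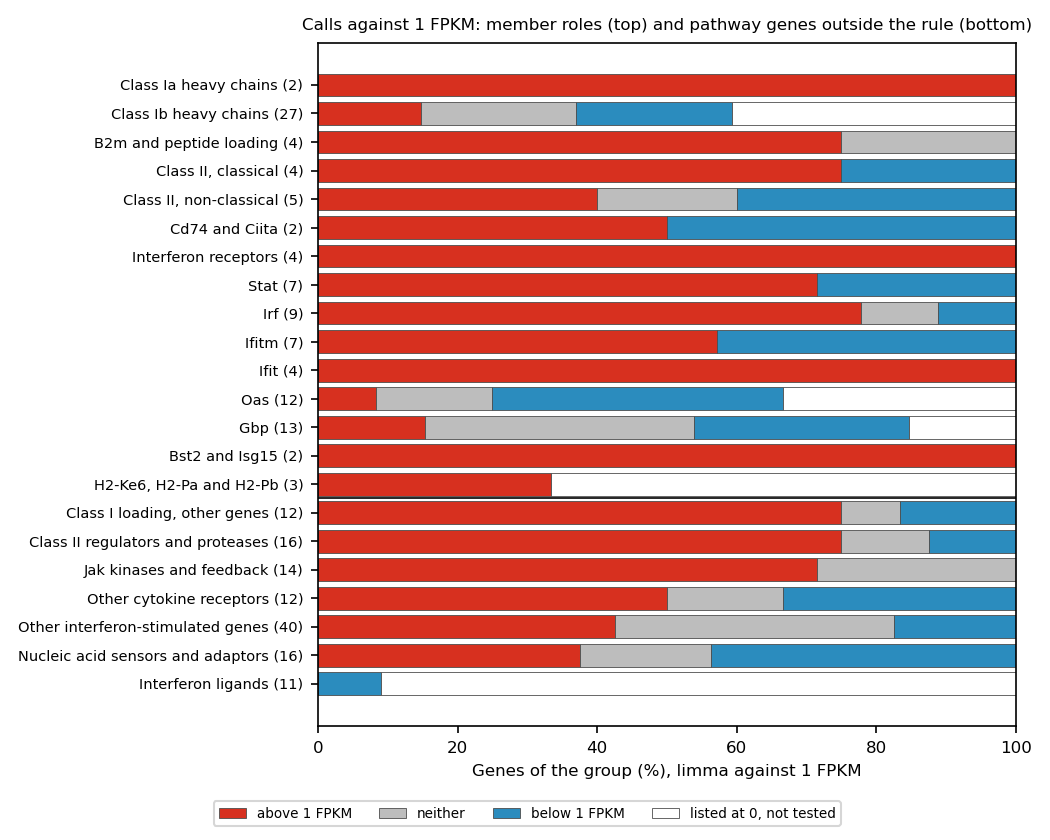
Share of genes in each group (%) called above 1 FPKM, below it or in neither direction by limma, or listed at 0 and not tested, with the group size in brackets. Member roles stand above the line and pathway genes outside the rule below it, and 10 of the 11 interferon ligands are listed at 0.

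Of the 3 remaining members, which carry H2 names, H2-Ke6 measured 22.9, 18.3, 16.5 and 20.3 FPKM. It encodes a hydroxysteroid dehydrogenase and no MHC chain, and it overlaps Gm20427, at 11.7 FPKM, over 86.4% of its exonic bases. H2-Pa and H2-Pb were listed at 0. By position, the H2 genes, Tap1, Tap2 and Tapbp lie on chromosome 17, while B2m lies on chromosome 2, Cd74 on chromosome 18 and Ciita on chromosome 16. The 4 Ifit genes lie together on chromosome 19, from 34550694 to 34650009, and all 4 were measured above 1 FPKM. The 12 Oas genes lie on chromosome 5, from 114896936 to 120921652, with 1 above. Of 56 members with a mean of at least 1 FPKM, 17 matched another gene's transcript (at least 95% identity over 50% of a transcript). Exonic bases were shared with another gene in 23, and some members, such as Irf5, are in both counts.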

How the data were processed

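The authors deposited 1 table of FPKM values with 46072 genes and 4 libraries, and 0 of its columns of values went unused. Build GRCm38, StringTie 2.2.1, HISAT2 2.2.1, SAMtools and bcl2fastq 2.20 stand in the submitters' processing notes. Which annotation release was used, how reads with more than 1 match were handled and whether strand was counted is not stated in the labels. Messenger RNA was enriched and cDNA primed at random, per the labels' protocols. FPKM divides by transcript length and mapped total, so a few very high genes lower all others. A value of exactly 0 may come from an estimate that failed, and such genes are called listed at 0.

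Libraries were matched to columns by library name. Values were taken as log2(FPKM + 1), with a pseudocount of 1, which understates folds of low genes. limma 3.58.1 in R 4.3.3 (mean-variance trend, 2-sided, Benjamini-Hochberg, threshold 0.05) tested 25206 genes above 0 in any library against 1 FPKM and against each library's median of endothelial or microglial markers. Only the test against 1 FPKM was also run on simulated data, and the tests against list medians were not. Pairs were compared by an exact sign-flip test over 16 patterns. Positions and transcripts came from GENCODE M21 (GRCm38), which held 104 of 105 members. Near copies were found with BLAST+ 2.17.0. Promoters came from RefSeq (GRCm38.p6). Any member could be named, and of other lists the 3 highest genes and a few chosen after their values were seen. Those few were Psmb8, Psmb9, Psmb10, Nlrc5, Rfx5, Rfxap, Rfxank, Jak2, Tyk2, Usp18, Rsad2, Mx1, Cxcl10, Ube2l6, Ifi35 and the cell markers. Members, lists and pairs were chosen with earlier results of these data known. Alternatives covered the pseudocount, scaling, filters, variance model, list summary and each library left out. Results for some genes are not reported here. Figures were drawn with matplotlib 3.10.9.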

Additional observations from a re-analysis of the deposited data

Results flagged for a closer look

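Across the 4 libraries 81 values were compared (56 members and summed or relative levels of their groups). Of these, 2 had 1 library far from the others, a smaller share than the 1 in 20 or so that chance gives. The 4 receptor subunits summed to 63.4 FPKM in library 2, against 54.9 to 55.1 FPKM in the other 3. Irf2 measured 7.36 FPKM in library 1, against 5.74 to 6.02 FPKM in the other 3.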

How the results depend on the processing

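No comparison of groups or of paired samples was possible because the series has 1 group, and the pairs here are genes within a library. Read depth is unknown, so how far counting limits the low genes cannot be given, and with 4 libraries no pair of members could pass the threshold in the exact sign-flip test. The count of members below 1 FPKM was 25 (29.1%, against 40.1% of all genes). It was 13 with libraries rescaled to a fixed sum (15.1%, against 29.7%) and 15 where the mean had to reach 0.1 FPKM (19.5%, against 25.9%). It was 41 with no filter, which adds the members listed at 0 (39.0%, against 65.4%). The other 5 counts stayed within 1.5 times of their values. Leaving out 1 library gave 43 to 45 above and 22 to 24 below 1 FPKM. Some differences near 0 changed sign, all on the log2 scale. Against 1 FPKM, H2-Q7 was at -0.022 with a pseudocount of 0.1, and Gbp6 and Gbp9, whose mean log2 values lay just under that level, at 0.57 and 0.56 after rescaling, which by its construction moves every gene up against a fixed level and so says nothing of their stability. Leaving out 1 library each gave -0.0059 to 0.10 for H2-Q6, -0.11 to 0.15 for H2-Q7, -0.20 to 0.16 for Gbp6 and -0.23 to 0.16 for Gbp9. With the mean of the endothelial markers in place of their median, Irf1 was at -0.33, Stat5b at -0.34, Irf9 at -0.43, Tap2 at -0.46, H2-DMa at -0.29, H2-Q2 at -0.46 and Irf2, which had been called above the median, at -0.14. With that mean 19 members lay above and 60 below. Against the endothelial median, leaving out 1 library gave -0.30 to 0.036 for H2-DMb1, -0.079 to 0.055 for H2-M3, -0.11 to 0.17 for Ifit1 and -0.23 to 0.13 for Isg15. Against the mean of the microglial markers Ifngr2 was at -0.044, H2-T23 at -0.069 and Ifit3 at -0.035, and against their median Ifit3 ranged over -0.0016 to 0.17 on leaving out 1 library. The difference of Irf8 and Irf5 ranged over -0.40 to 0.017. The cause of the other changes was not tested. Using each gene's own spread was chosen after seeing the data. Among members averaging 1 FPKM or more it lost Irf5 as above 1 FPKM and H2-Ke6 as above the microglial median.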
